A study of Mus musculus with 12 samples.

Results

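The 10 genes studied mark the choroid plexus, the secretory epithelium that lines parts of the brain ventricles, and were followed in mouse hippocampus after exposure to Gulf War chemicals. They were taken by symbol (Ttr, Folr1, Kl, Clic6, Enpp2, Aqp1, Otx2, Cldn2, Calml4 and Sostdc1) and all 10 were found among the 41743 genes of the deposited table. The toxicant group held 6 libraries from male C57Bl/6 mice aged 12 weeks that were injected subcutaneously on weekdays for 2 weeks with pyridostigmine bromide (2.5 mg/kg), chlorpyrifos (12.5 mg/kg) and DEET (7.5 mg/kg). Pyridostigmine is a cholinesterase inhibitor given as a nerve agent pretreatment, chlorpyrifos an organophosphate insecticide and DEET an insect repellent. The control group received vehicle and was of the same strain, sex and age. Hippocampi were taken when the exposure ended, and each sample came from a different mouse.

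The choroid plexus hangs in the lateral ventricle beside the hippocampus and is not part of it. Its epithelial cells make cerebrospinal fluid, move ions, water and folate across a leaky cell layer, and secrete carrier proteins, above all transthyretin. In the adult rodent brain most of the 10 genes are much more strongly expressed there than in neurons or glia, with exceptions such as Enpp2, which oligodendrocytes also express.

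The table listed 6 control samples, but control 4 and control 5 held identical values in all 41743 genes. They differed by less than sampling noise and were counted as 1 sample, named control 4-5, which left 5 control libraries. The reads behind the values came to 21.5 M to 28.4 M in toxicant and 24.95 M to 34.9 M in control libraries. Genes of forebrain excitatory neurons, which do not tell hippocampus from cortex, were abundant. Nrgn was at 532 to 795 RPKM (reads scaled to gene length and library size) in toxicant and at 565 to 1043 RPKM in control libraries, and Camk2a at 291 to 367 RPKM in toxicant and 336 to 480 RPKM in control libraries. The libraries that stood apart in the 10 genes were toxicant 2, control 3 and, less far, control 4-5. No batch is named in the labels.

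The 10 genes differed between single libraries far more than between the exposure groups, and they did so together. Control 3 held the highest value, toxicant 2 the second and control 4-5 the third in 10 of 10 genes. Of the 13493 genes whose mean reached 0.5 RPKM, 0.563% had this order. The members were chosen with earlier results of these data known, so this share gives no independent test. Folr1, Aqp1, Otx2 and Cldn2 are among the 13493 only through toxicant 2 and control 3, and Calml4 is not among them. After the 3 highest libraries came control 6 in 9 of the 10 genes and toxicant 1 in the other, Calml4. Toxicant 4 was the lowest library in 9 of the 10, and toxicant 6 in the other, Enpp2. Because 1 of the 6 toxicant libraries and 2 of the 5 control libraries were among the 3 highest, the group ranges overlapped for 10 of 10 genes. Groups did not overlap in 2.03% of all genes with the toxicant group lower and in 0.111% with the toxicant group higher. In RNA from bulk tissue, more cells of a type and more RNA per cell cannot be told apart, nor can either be told from the amount of neighbouring tissue in the sample, which the labels do not record.

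**Figure D1:**
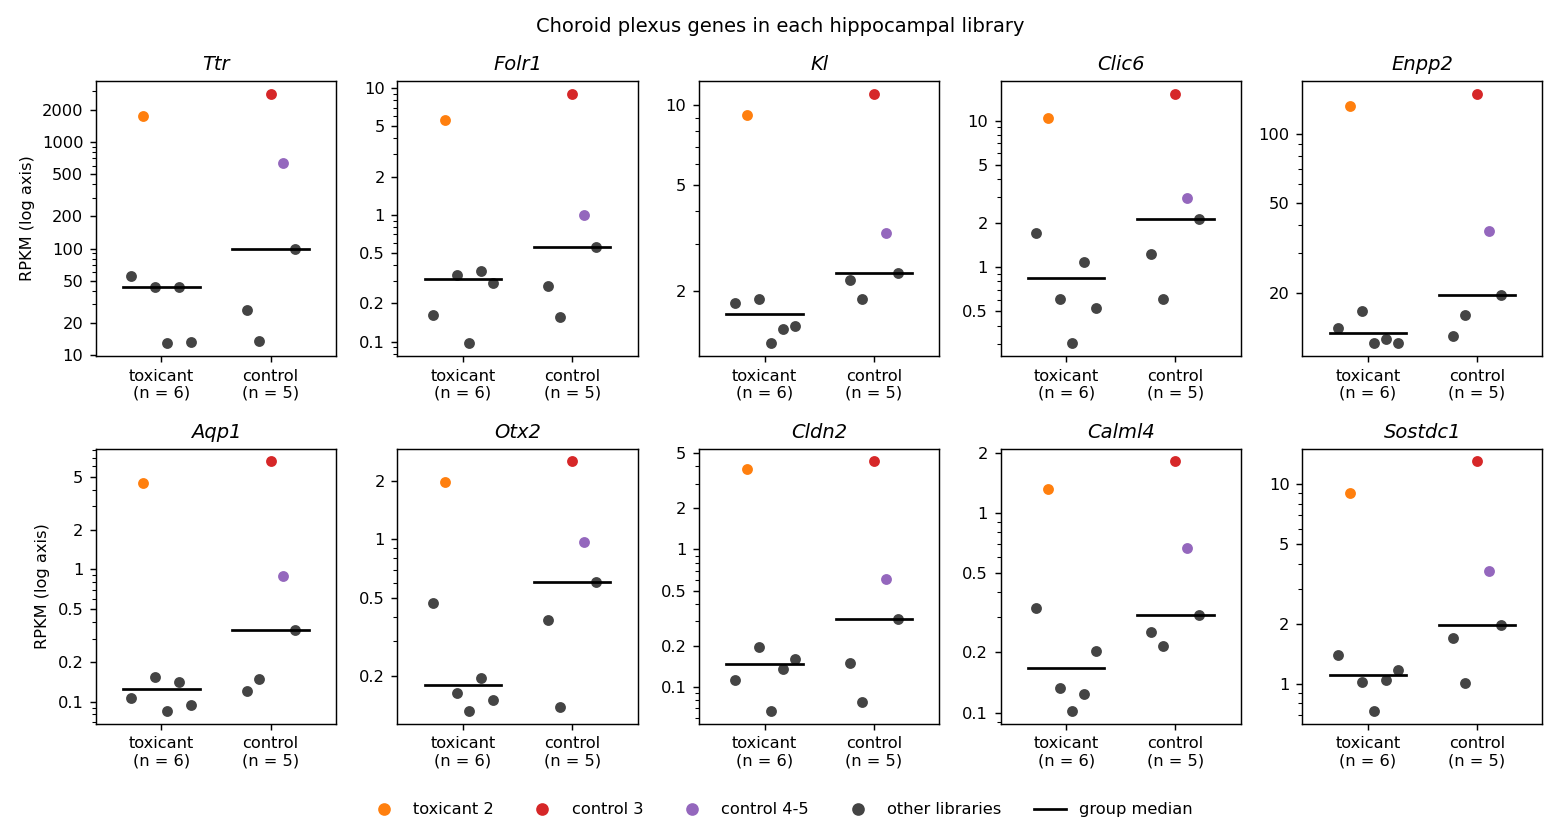
Levels of the 10 choroid plexus genes in RPKM (log axes) in 6 toxicant (left) and 5 control libraries (right), with 1 point per library and the group median as a line. Toxicant 2 is the highest toxicant library and control 3 the highest control library in each panel, with control 4-5 next.

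Ttr encodes transthyretin, which carries thyroxine and retinol-binding protein in the cerebrospinal fluid. It (ENSMUSG00000061808) lies on chromosome 18 from 20665280 to 20674321 in GRCm38. It was at 55.7, 1764, 43.4, 12.9, 43.6 and 13.4 RPKM in toxicant 1 to 6. In controls 1, 2, 3, 4-5 and 6 it was at 26.7, 13.6, 2836, 629 and 99.1 RPKM. The highest library was thus 219.6-fold above the lowest, and 5 of 6 toxicant libraries lay between 12.9 and 55.7 RPKM, a range that also took in controls 1 and 2. By RPKM, Ttr ranked 15th of all genes in toxicant 2, 11th in control 3 and 27th in control 4-5, but 2859th in toxicant 6 and 2551st in control 2. The means were 322 ± 706 RPKM in toxicant (SD, n = 6) and 721 ± 1209 RPKM in control libraries (SD, n = 5), each exceeded by its own SD. Within groups, the SD of log2(RPKM + 0.5) was 2.86 for Ttr, the largest of the 13493 genes tested, whose median SD was 0.19.

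Secreted or shed products besides transthyretin were among the members. Enpp2 (ENSMUSG00000022425, chromosome 15 from 54838901 to 54952892) encodes autotaxin, the enzyme that makes lysophosphatidic acid. It was at 12.0 RPKM in the lowest, 13.3 RPKM in the median and 132 RPKM in the highest toxicant library, against 13.0, 16.1, 150.3, 37.6 and 19.7 RPKM in controls 1, 2, 3, 4-5 and 6. Outside the 3 high libraries its values ran only from 12.0 to 19.7 RPKM, a floor of 8.02% of the highest value. Sostdc1, on chromosome 12 from 36314139 to 36318452, encodes a secreted antagonist of BMP and Wnt signals. Its lowest, median and highest toxicant values were 0.727, 1.10 and 9.10 RPKM, and controls 1, 2, 3, 4-5 and 6 were at 1.71, 1.01, 13.03, 3.69 and 1.98 RPKM. Kl, on chromosome 5 from 150952607 to 150993817, encodes klotho, a co-receptor for the hormone FGF23 that is also shed into the fluid. It had the smallest contrast of the 10, with 1.27, 1.64 and 9.23 RPKM as the lowest, median and highest toxicant values and 2.20, 1.86, 11.1, 3.33 and 2.34 RPKM in controls 1, 2, 3, 4-5 and 6. Its highest library was 8.70-fold above its lowest, which still reached 11.5% of the highest.

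The genes for transport across the epithelium had lower floors. Folr1 encodes folate receptor alpha, which brings folate into the fluid, and lies on chromosome 7 from 101858331 to 101870788. It was at 0.0966 RPKM in the lowest, 0.313 RPKM in the median and 5.58 RPKM in the highest toxicant library. Controls 1, 2, 3, 4-5 and 6 were at 0.277, 0.156, 9.06, 0.998 and 0.562 RPKM. Aqp1, the water channel of the apical membrane, on chromosome 6 from 55336432 to 55348555, was at 0.0845, 0.124 and 4.50 RPKM in the lowest, median and highest toxicant library and at 0.121, 0.149, 6.54, 0.885 and 0.350 RPKM in those controls. Toxicant 2 and control 3 were the only libraries above 1 RPKM for either gene. Cldn2, on chromosome X from 139800828 to 139811386, encodes the claudin that forms pores in leaky tight junctions. Its lowest, median and highest toxicant values were 0.0668, 0.148 and 3.83 RPKM, against 0.149, 0.0784, 4.34, 0.607 and 0.311 RPKM in controls 1, 2, 3, 4-5 and 6. Clic6, of the chloride intracellular channel family, on chromosome 16 from 92485736 to 92541243, was at 0.302, 0.845 and 10.5 RPKM in the lowest, median and highest toxicant library and at 1.24, 0.608, 15.3, 2.97 and 2.15 RPKM in the controls in that order. The lowest library held 1.07% of the highest for Folr1, 1.29% for Aqp1, 1.54% for Cldn2 and 1.98% for Clic6, while Ttr was at 0.455%. The lowest values of Folr1, Aqp1 and Cldn2 rested on 6 reads each, with an exact 95% Poisson interval of 2.20 to 13.1 reads that covers counting error only. Their folds between libraries (93.7, 77.5 and 65.0) are accordingly imprecise.

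Otx2 encodes a homeodomain transcription factor needed to form and maintain the choroid plexus, and lies on chromosome 14 from 48657677 to 48673819. It was at 0.131, 0.179 and 1.96 RPKM in the lowest, median and highest toxicant library and at 0.385, 0.139, 2.51, 0.964 and 0.605 RPKM in controls 1, 2, 3, 4-5 and 6. Calml4, a calmodulin-like protein gene on chromosome 9 from 62858080 to 62875921, was at 0.102, 0.168 and 1.31 RPKM in the lowest, median and highest toxicant library and at 0.252, 0.215, 1.80, 0.667 and 0.307 RPKM in those controls. For both genes, too, the 3 highest libraries were toxicant 2, control 3 and control 4-5. Calml4 had a mean of 0.496 RPKM over the 11 libraries and fell just under the filter on low values, while Otx2, the member just above it, had 0.697 RPKM.

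The members' start regions were searched for short motifs on both strands. Whether any motif relates to the members' levels across libraries was not tested. RefSeq (GRCm38.p6) gave windows from 250 bases before to 50 bases after a start for 5 of the 10 members, 8 windows in all. TAATCC, the core letters bound by Otx-type homeodomains, was in 1 of the 8 windows, one of 4 listed for Otx2, and in 7.06% of all 32851 windows. The shorter GATTA inside its reverse complement was in windows of Kl and Otx2 and in 7228 of the 32851. TATAAA was in windows of Cldn2 and Otx2 and in 13.6% of all, and TAATTA in 2 windows of Otx2 and in 5.29% of all. TGTTTAC and CACGTG were in 0 of the 8 windows and in 3.65% and 7.15% of all. The windows of Aqp1 (chr6:55336049-55336348, plus strand), Cldn2 (chrX:139800558-139800857, plus strand) and the Otx2 start with TAATCC (chr14:48665060-48665359, minus strand) are shown because the last 2 hold searched motifs and Aqp1, with the same library order, holds none. Capitals mark TAATCC and TATAAA on either strand, and a window without them has none.
Aqp1: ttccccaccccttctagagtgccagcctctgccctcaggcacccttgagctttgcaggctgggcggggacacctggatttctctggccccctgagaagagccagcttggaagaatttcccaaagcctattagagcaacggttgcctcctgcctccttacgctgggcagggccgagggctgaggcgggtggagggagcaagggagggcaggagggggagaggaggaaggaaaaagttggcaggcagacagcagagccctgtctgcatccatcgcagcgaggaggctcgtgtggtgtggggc
Cldn2: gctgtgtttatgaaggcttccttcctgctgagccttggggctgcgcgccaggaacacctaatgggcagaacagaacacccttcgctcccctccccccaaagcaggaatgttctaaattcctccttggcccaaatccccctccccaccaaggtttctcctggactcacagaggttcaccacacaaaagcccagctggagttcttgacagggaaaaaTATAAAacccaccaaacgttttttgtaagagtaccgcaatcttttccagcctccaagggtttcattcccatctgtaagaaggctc
Otx2: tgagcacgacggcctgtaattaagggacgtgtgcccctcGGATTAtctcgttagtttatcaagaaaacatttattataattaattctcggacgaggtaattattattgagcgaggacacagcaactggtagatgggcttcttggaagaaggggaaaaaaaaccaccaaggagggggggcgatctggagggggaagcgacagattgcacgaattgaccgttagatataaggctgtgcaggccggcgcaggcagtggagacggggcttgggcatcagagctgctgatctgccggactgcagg

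Across the 11 libraries, the log2 levels of the other 9 members followed that of Ttr, with Pearson r of 0.92 (Cldn2) to 0.97 (Otx2) and Spearman rho of 0.81 (Cldn2) to 0.97 (Clic6). All 9 relations passed a two-sided permutation test adjusted over the 9 (adjusted p of 6.75e-05 to 0.00019 for r and of 4.5e-05 to 0.0038 for rho). The members were chosen with earlier results of these data known. The p-values here and below, and the share of all genes given below, are thus no independent test. Without toxicant 2 and control 3, the 2 libraries farthest from the median of Ttr, r was 0.83 to 0.92 over 9 libraries and 9 of 9 still passed (permutation, adjusted p of 0.00432 to 0.0138). Without control 4-5 as well, r was still above 0 for all 9, at 0.46 for Calml4 to 0.85 for Clic6 over 8 libraries, and rho was 0.50 (Cldn2) to 0.93 (Clic6). By the permutation test 0 of 9 then passed (adjusted p of 0.0736 to 0.240) and 4 had an unadjusted p under 0.05, so among these 8 libraries the relation was positive but did not pass. Of all genes tested, 0.319% had an r with Ttr of at least 0.9, which all 9 reached. Between any 2 of the 10 members r was 0.92 to 0.99 over the 11 libraries (median 0.97 over 45 pairs).

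**Figure D2:**
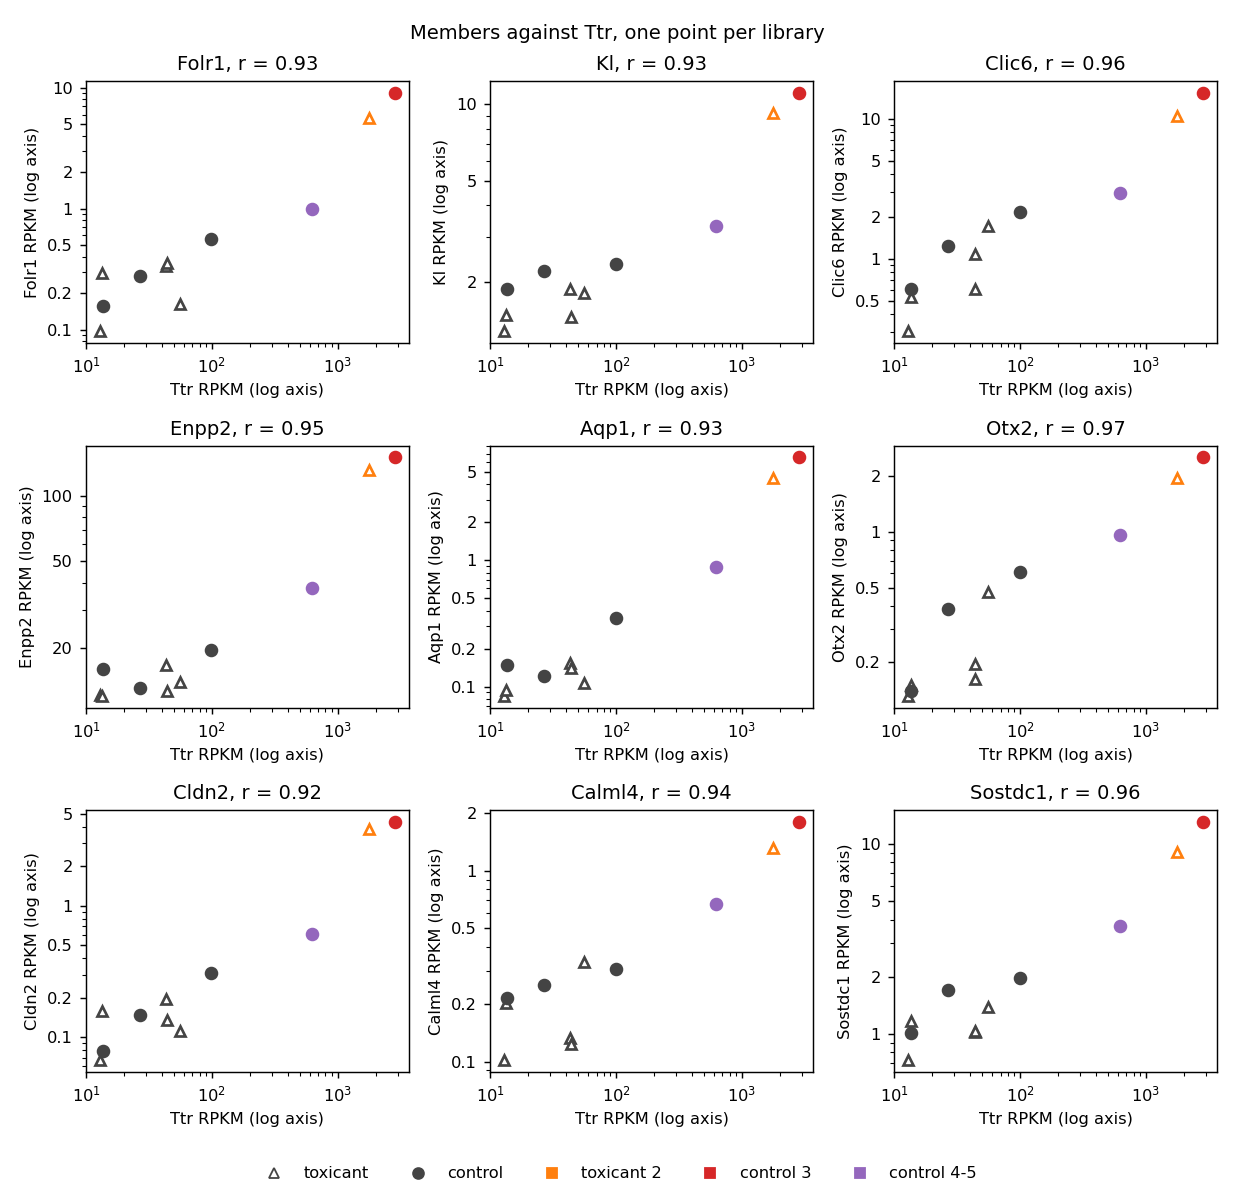
Level of each of 9 members against that of Ttr, both in RPKM on log axes, with 1 point per library (triangles toxicant, circles control) and Pearson r of log2(RPKM + 0.5) over 11 libraries. Toxicant 2 and control 3 lie at the upper right of each panel, control 4-5 next, and the other 8 libraries spread over a low range with a looser relation.

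The proportions between members were not the same in the high libraries. Toxicant 2 reached between 61.6% (Folr1) and 88.2% (Cldn2) of the control 3 level. For Ttr this was 62.2% (95% interval 61.5% to 62.9%, from the read counts, counting error only) and for Enpp2 87.9% (86.1% to 89.7%), so these 2 members differed by more than counting error. Counted above each gene's lowest library, the shares were 62.0% for Ttr and 86.8% for Enpp2. Control 4-5 reached 11.02% (Folr1) to 38.5% (Otx2) of control 3, with Ttr at 22.2% (21.8% to 22.5%). The intervals of Folr1 (8.41% to 14.2%) and Otx2 (30.7% to 47.9%) did not overlap. Per 1000 RPKM of Ttr, Enpp2 stood at 74.9 RPKM in toxicant 2 and 939 RPKM in toxicant 4, against 53.0 RPKM in control 3, 59.8 RPKM in control 4-5 and 1186 RPKM in control 2. On the same footing Clic6 stood at 5.95 RPKM in toxicant 2 and 23.4 RPKM in toxicant 4, against 5.40 RPKM in control 3, 4.73 RPKM in control 4-5 and 44.9 RPKM in control 2. Both were higher relative to Ttr in the libraries with little Ttr. Over the 9 members, the ratio to Ttr spanned between 7.80-fold (Aqp1) and 35.2-fold (Kl) across libraries.

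Between exposure groups, 0 of the 9 members that could be tested passed limma's test, which used log2(RPKM + 0.5), Benjamini-Hochberg adjustment over 13493 genes and a threshold of 0.05. Over all genes, 0% were called higher and 0% lower. Without control 2 limma called 4932 of 13468 genes tested, with 0 of the 10 members tested in that fit among them. With all 11 libraries, 0 members had an unadjusted p under 0.05, against 3.33% of all genes higher and 17% lower. All 9 log2 fold changes (toxicant over control) were below 0, as were 70% of all genes, and their median was -0.54, beside -0.11 over all genes. Ttr stood at a log2 fold change of -1.35 ± 1.46 (SE; adjusted p = 0.515 by limma), Clic6 one of -0.77 ± 0.72, Sostdc1 one of -0.70 ± 0.59 and Enpp2 one of -0.59 ± 0.70. Aqp1, Folr1, Kl, Otx2 and Cldn2 lay between -0.54 and -0.34, with adjusted p of 0.425 to 0.695. The standard errors (0.42 to 1.46 over the 9) compare with a median of 0.11 over all genes. The sizes turned on single libraries. Without control 3 the median was -0.11, and Folr1, Aqp1 and Cldn2 were at 0.15, 0.072 and 0.19 (adjusted p = 0.833 to 0.946 by limma), while without toxicant 2 the median was -1.05 and Ttr at -2.34. Without both, only 5 members reached a mean of 0.5 RPKM. Folr1, Aqp1, Otx2 and Cldn2 thus passed the filter on low values only through toxicant 2 and control 3. Without both and with no filter, the log2 fold changes of the 10 members were all below 0 with a median of -0.47, and 0 passed (limma, smallest adjusted p = 0.807). Without control 4-5 as well, that median was -0.23 and Ttr was at -0.22, against -1.27 for Ttr with control 4-5 kept, and 0 passed (limma, smallest adjusted p = 0.770).

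**Figure D3:**
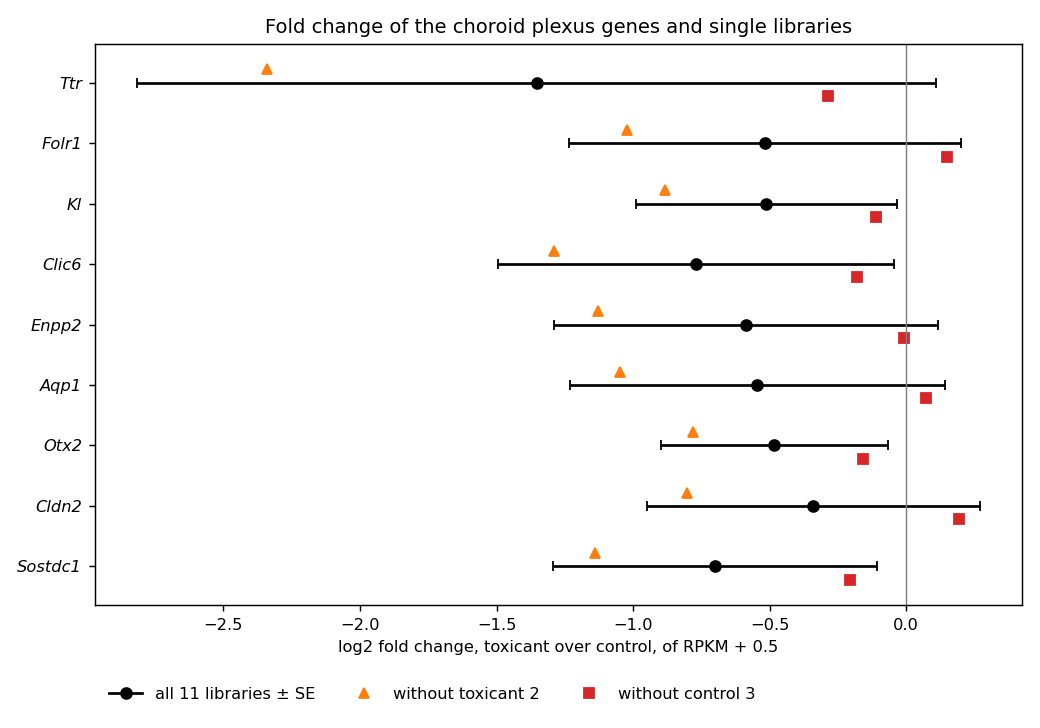
Log2 fold change (toxicant over control, of RPKM + 0.5) of the 9 members past the filter on low values, as black circles with the standard error over 11 libraries, and again without toxicant 2 (triangles) and without control 3 (squares). Leaving out 1 library moves Ttr between -2.34 and -0.29.

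Other choroid plexus genes were a list of 30 that holds no member and was written with results of these data known. They had the same 2 libraries, toxicant 2 and control 3, on top in 25 of 30 cases and the full order of 3 in 20 of 30. Of all genes, 1.56% had toxicant 2 and control 3 on top. A list chosen that way gives no independent test against this share. Of the 25 past the filter, 0 were called between groups, 22 were below 0 and the log2 fold changes had a median of -0.43. Igfbp2 and Igf2, a binding protein and a growth factor that the choroid plexus secretes, were at 29.9 and 18.9 RPKM in toxicant 2 and at 50.6 and 24.7 RPKM in control 3. The medians of these 2 genes were 8.27 and 3.93 RPKM in toxicant and 13.3 and 7.01 RPKM in control libraries. The anion exchanger gene Slc4a2 reached 6.02 RPKM in toxicant 2 and 8.81 RPKM in control 3 (medians 2.81 RPKM in toxicant and 3.45 RPKM in control libraries), and the carbonic anhydrase gene Car12 5.73 and 7.11 RPKM (medians 3.53 and 3.84 RPKM).

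Car2, Slc29a4 and Slc12a2 did not have these libraries as the highest pair. The carbonic anhydrase gene Car2 was at 40.5 to 50.1 RPKM in toxicant and 53.5 to 65.9 RPKM in control libraries, with no overlap and a log2 fold change of -0.37 ± 0.08 (SE; adjusted p = 0.166 by limma). Slc29a4, a monoamine transporter gene, was at 8.59 to 12.3 RPKM in toxicant and 7.70 to 17.9 RPKM in control libraries. Slc12a2, the sodium-potassium-chloride cotransporter gene, was at 3.06 to 7.11 RPKM in toxicant and 2.38 to 6.65 RPKM in control libraries. The serotonin receptor gene Htr2c was highest in toxicant 2 (5.94 RPKM), ahead of control 3 (4.79 RPKM), with medians of 3.62 RPKM in toxicant and 3.00 RPKM in control libraries.

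The 10 genes whose pattern over the 11 libraries was most like that of the members, by mean Pearson r with the 9 tested members, were Wfdc2, Col9a3, Kcnj13, Igf2, Ecrg4, F5, Slc2a12, Pcolce, Steap1 and Kcne2 (mean r 0.97 to 0.98). Of these 10, 7 were on the list of other choroid plexus genes, which was written with results of these data known. Kcnj13, an inwardly rectifying potassium channel of epithelia, was at 10.98 RPKM in toxicant 2 and 13.6 RPKM in control 3, with medians of 0.291 RPKM in toxicant and 1.02 RPKM in control libraries. Kcne2, a potassium channel subunit, was at 7.48 RPKM in toxicant 2 and 8.07 RPKM in control 3, with medians of 0.208 RPKM in toxicant and 0.406 RPKM in control libraries. Ecrg4, a gene for a secreted peptide precursor that was not on the list, was at 27.9 RPKM in toxicant 2, 37.6 RPKM in control 3 and 8.76 RPKM in control 4-5. Its medians were 0.972 RPKM in toxicant and 2.45 RPKM in control libraries. In all, 49 genes besides the members had a mean r of at least 0.9.

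Markers of other cells near the ventricle were set beside the members. Ependymal markers, from the ciliated cells that line the ventricle, summed to 33.0 to 51.9 RPKM in toxicant and 35.5 to 71.7 RPKM in control libraries over 15 genes, none of them at 0 in any library. Toxicant 2 held the highest toxicant sum and control 3 the highest control sum. Between the highest and lowest library the ependymal sum differed 2.17-fold, against 3.24-fold for the 30 other choroid plexus genes and 109.6-fold for the members. The members' sum was mostly Ttr (2836 of 3050 RPKM in control 3). Control 3 and toxicant 2 were the 2 highest libraries in 5 of the 15 ependymal genes (33.3%, against 1.56% of all genes tested). Meningeal and fibroblast markers summed to 13.7 to 19.8 RPKM in toxicant and 13.9 to 21.6 RPKM in control libraries over 12 genes, and thalamic and habenular markers to 13.8 to 20.1 RPKM in toxicant and 17.4 to 19.9 RPKM in control libraries over 12 genes. In the thalamic list Pou4f1 was listed at 0 in some libraries. Oligodendrocyte markers, of a cell type that also expresses Enpp2, summed to 515 to 712 RPKM in toxicant and 747 to 837 RPKM in control libraries over 12 genes. Control 3, at 837 RPKM, held the highest oligodendrocyte sum of all libraries, as it did for Enpp2, and control 4-5 was at 820 RPKM. Toxicant 2, at 601 RPKM, was not the highest of its group there, though its Enpp2 was. Endothelial markers summed to 48.5 to 58.0 RPKM in toxicant and 59.5 to 72.7 RPKM in control libraries over 10 genes, red cell markers to 70.9 to 101.6 RPKM in toxicant and 97.1 to 142.8 RPKM in control libraries over 5 genes, and hippocampal neuron markers to 1149 to 1520 RPKM in toxicant and 1244 to 2023 RPKM in control libraries over 10 genes. The neuron sum was mostly Nrgn and Camk2a (532 and 298 of 1149 RPKM in toxicant 2), which do not tell hippocampus from cortex. In these 7 lists, limma called 0 of 65 genes tested, and 31 (47.7%) had an unadjusted p under 0.05, against 20.3% of all genes. These were 9 of 12 oligodendrocyte, 8 of 10 endothelial, 4 of 4 red cell, 4 of 10 hippocampal neuron, 3 of 12 ependymal, 2 of 9 meningeal and 1 of 8 thalamic genes. Both directions are counted, and log2 fold changes ran from -0.71 in the oligodendrocyte list to 0.59 in the meningeal list. The lists were chosen with earlier results of these data known, so their shares beside those of all genes give no independent test. The part of any of these cell types in the members' levels was not tested.

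**Figure D4:**
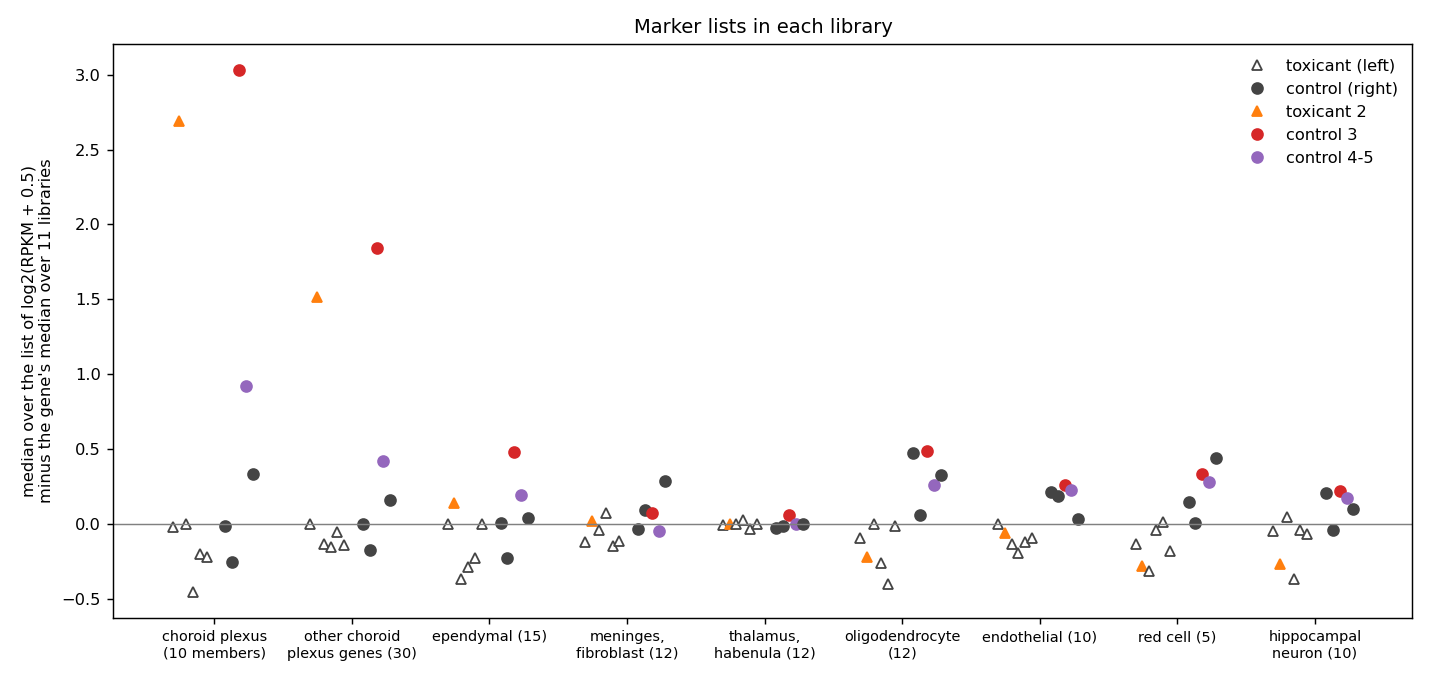
Level of 9 marker lists in each library, as the median over the list's genes of log2(RPKM + 0.5) minus each gene's median over 11 libraries (triangles toxicant, circles control). Toxicant 2 and control 3 stand at 2.69 and 3.03 for the 10 members and at 1.52 and 1.85 for the other choroid plexus genes, but between -0.28 and 0.49 for the other lists.

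The 10 genes took a small part of the reads. They made up 0.0128% to 0.388% of the reads on genes in toxicant (median 0.0196%) and 0.0156% to 0.507% in control libraries (median 0.0311%), and 0.123% in control 4-5. Ttr alone was 0.266% in toxicant 2 and 0.380% in control 3. Reads on genes made up 78.7% of all in toxicant 2 and 88.4% in control 3, within 76.8% to 89.5% over all libraries. With the log2 level of Ttr as a covariate, limma's count over all 13493 genes was 0 at an adjusted p under 0.05, as without it, and 1920 at an unadjusted p under 0.05, against 2737 without it. That count was 894 without toxicant 2 and control 3, a fit with 9 libraries. It also moved in fits not chosen by Ttr, to 1818 with the percentage of reads on genes as covariate and 1460 without control 1. Leaving out 1 library gave counts from 1336 (without control 3) to 7107 (without control 2). The cause of these shifts was not tested.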

How the data were processed

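Polyadenylated RNA of mouse hippocampus was sequenced as single reads, per the labels' protocols. The authors deposited 1 table of RPKM values per gene and sample, per the file headers. The build and the tools for alignment and counting were not given in the sources used here. Columns were matched to samples by the code in each description. Multiplied by exon lengths of GENCODE M21 (GRCm38, 41675 of 41743 gene IDs found), 98.3% to 98.4% of a library's values above 0 were whole multiples of 1 read within 0.05, which gave the reads behind them.

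The 13493 genes whose mean over 11 libraries reached 0.5 RPKM were tested on log2(RPKM + 0.5) with limma 3.58.1 in R 4.3.3 (lmFit, eBayes with trend, no covariate, two-sided, Benjamini-Hochberg). This scale understates changes of low genes. The code was tested on simulated data. Correlations used 100000 permutations in numpy 2.4.6 on Python 3.11.15, with a smallest possible p of 1e-05. Intervals cover counting error only.

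The members and 9 gene lists (116 symbols, all found) were chosen with earlier results of these data known. Named were the members, the 8 most abundant other choroid plexus genes, the 10 genes most like the members (predicted genes left out) and the 2 most abundant genes of a list where values of single genes are given. Kcnj13, Kcne2 and Ecrg4 were picked from the most alike for full values. Values of 1 other choroid plexus gene are not reported here. Alternatives are in the closing section.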

Additional observations from a re-analysis of the deposited data

Results flagged for a closer look

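Single libraries were compared with the rest of their own group by the gap to the nearest other library divided by the group's range, on log2(RPKM + 0.5), against Dixon's 95% critical values (0.710 for 5 and 0.625 for 6 libraries). Chance flags about 1 in 20 groups, and 82 gene-by-group sets of 41 named genes were examined. That rate does not apply to a count of flags here. The members' levels moved together (r of 0.92 to 0.99 between any 2), so their flags are not separate trials. Members and lists were also chosen with earlier results of these data known. Among the members, toxicant 2 stood above the other 5 toxicant libraries in 9 of 10 genes, with a gap of 0.706 for Ttr, 0.844 for Folr1, 0.829 for Kl, 0.866 for Enpp2, 0.948 for Aqp1, 0.681 for Otx2, 0.9002 for Cldn2, 0.706 for Calml4 and 0.791 for Sostdc1. The exception was Clic6, in which toxicant 1, the nearest library, was at 1.70 RPKM. Control 3 passed in 0 of the 10 members, with control 4-5 between it and the rest.

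Among the other choroid plexus genes and the genes most like the members, toxicant 2 stood apart in 14. These include all 10 of the most alike genes, which were chosen for their correlation with the members. That choice fixed their pattern, and the chance rate does not apply to them either. The gap was 0.849 for Igfbp2, 0.774 for Igf2, 0.656 for Car12, 0.817 for Slc4a2, 0.774 for Htr2c, 0.899 for Wfdc2, 0.768 for Col9a3, 0.867 for Kcnj13, 0.729 for Ecrg4, 0.914 for F5, 0.822 for Slc2a12, 0.797 for Pcolce, 0.844 for Steap1 and 0.822 for Kcne2. Control 3 stood apart in 3 of the same genes, with a gap of 0.842 for Slc4a2, 0.712 for F5 and 0.730 for Slc2a12. Among the markers of other cells, toxicant 4 was low for Ramp3, a receptor activity-modifying protein, with a gap of 0.778 (1.15 RPKM, against 1.80 to 2.03 RPKM in the other toxicant libraries).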

How the results depend on the processing

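No member was called under any alternative run. Of 254 alternative values of the members' log2 fold changes, 251 kept their sign. The other 3, without control 3, were 0.15 for Folr1, 0.072 for Aqp1 and 0.19 for Cldn2, while without toxicant 2 these were at -1.02, -1.05 and -0.80. The fit with Ttr as a covariate is not among the 254 values, since Ttr is a member. Changing only the filter or the eBayes options, or using an exact permutation test, returns the same log2 fold change. Those signs could thus not change, and the replicate block repeated the values of the fit without toxicant 5. Leaving out 1 library moved the median of the members between -1.05 and -0.11 and the count of all genes called between 0 and 4932. The highest count was without control 2, where of 13468 genes tested 1153 were higher and 3779 lower. The smallest adjusted p of the 10 members tested there was 0.162 by limma. Leaving out 1 library left the count of members correlated with Ttr at 9. That count was 0 without toxicant 2, control 3 and control 4-5, an alternative chosen after seeing the data, as were the fits without toxicant 2 and control 3. The count of all genes called was 1 with a pseudocount of 0.1 and 9 with the 12 libraries as deposited. The median of the members was -0.83 with a pseudocount of 0.1, -0.89 with limma voom on the recovered reads and -0.39 with the percentage of reads on genes as covariate. Median-ratio scaling moved the median of all genes to 0.00 and that of the members to -0.46. The cause of these shifts was not tested.

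The replicate numbers were not taken as pairs, and these checks do not settle whether they are. The deviations of same-numbered samples correlated at -0.30 for number 3 and at 0.27 to 0.62 for the other 4 pairs, and 3 of 10 libraries correlated best with their own number. With the replicate number as a block, 0 genes and 0 members were called, the median of the members was -0.46, and 4664 genes had an unadjusted p under 0.05. Depth limits the members at their floors, where Folr1, Aqp1 and Cldn2 had 6 reads.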
